A study of Mus musculus with 8 samples.

Results

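When unfolded proteins accumulate in the endoplasmic reticulum (ER), the membrane sensors Ern1 (IRE1), Eif2ak3 (PERK) and Atf6 switch on the unfolded protein response. Ern1 splices the mRNA of the transcription factor Xbp1, Atf6 is cut to release another factor, and together these raise the chaperones, foldases and degradation components of the ER. Eif2ak3 slows translation and thereby raises the transcription factor Atf4, which induces amino acid and stress genes including Ddit3 (CHOP). Hepatocytes secrete most plasma proteins, and their ER carries a heavy folding load that obesity and diabetes are known to disturb.

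The genes examined were 8 targets of the ER folding arm (Hspa5, Hsp90b1, Pdia4, Xbp1, Dnajb9, Herpud1, Sdf2l1 and Creld2) together with Atf4 and Ddit3. All probe sets that the array annotation assigned to exactly 1 of these symbols were taken, which gave 21 probe sets for the 10 genes out of 45037 probe sets and 18193 genes tested. They were measured in liver RNA of male KK-Ay mice, a strain that becomes obese and develops type 2 diabetes, 1 Affymetrix array per mouse. The control diet (CD) group of 4 mice received the AIN-93G diet, and the PD group of 4 mice received the same diet with 1 g/kg of persimmon peel (PP) extract. Feeding lasted 8 weeks, the mice were 14 weeks old and fasted for 3 h at sampling, and those put on arrays had been selected for plasma total ketone bodies near their group's average. The question was whether PP extract changed the response genes as a group, whether the folding targets and the Atf4 and Ddit3 arm differed, and which of them varied together between mice. No lean or untreated strain was analysed here, so the levels describe diabetic mice on either diet.

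Values are the log2 model-based expression index (MBEI) deposited by the authors, and a difference of 1 is a 2-fold change in the index. Levels of different probe sets are not comparable, so each was compared with itself across mice. Correlations between arrays over all probe sets lay from 0.991 to 0.996. The 3′ control probe set of Actb exceeded the 5′ set by 1.14 to 1.19 on the log2 scale in the 8 mice. Of 7 hepatocyte markers measured, 6, including Alb at 14.68 to 14.76, were not called by the rank product and differed between diets by -0.0022 to 0.11. The other, the tyrosine aminotransferase Tat, was called down, with a difference of -0.44 (rank product false discovery rate 0.0306) and PD entirely below CD (two-sided exact permutation p = 0.0286). In whole liver, fewer cells of a type and less RNA per cell cannot be told apart.

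All 10 genes were on average lower in PD than in CD mice at the probe set with the highest mean, by 0.02 to 0.29 on the log2 scale, with a median difference of -0.18. Over all 18193 genes, 53.5% were lower in PD. Of the 21 probe sets, 19 were lower in PD against 52.9% of all probe sets, but probe sets of 1 gene and genes of 1 pathway are not independent. None of the 21 passed a test over all probe sets. The rank product, which ranks every probe set in each PD against CD comparison, called 0 of 21 up and 0 of 21 down at a false discovery rate (FDR) under 0.1, where it called 0.213% of all probe sets up and 0.260% down. The lowest FDR among the 21 was 0.251, for Sdf2l1. limma with Benjamini-Hochberg adjustment called 0 of 21 at an adjusted p under 0.1, as it did for all probe sets (0% called), and its lowest adjusted p among all probe sets was 0.998. Without adjustment 3 of the 21 had a limma p under 0.05, at Pdia4, Sdf2l1 and Atf4, against 3.65% of all probe sets. In 1 of the 21, an Atf4 probe set, every PD mouse was below every CD mouse, which held for 1.02% of all probe sets, and in 0 of 21 was every PD mouse above every CD mouse, against 1.06%. With 4 mice against 4 the smallest two-sided exact permutation p is 0.0286.

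**Figure D1:**
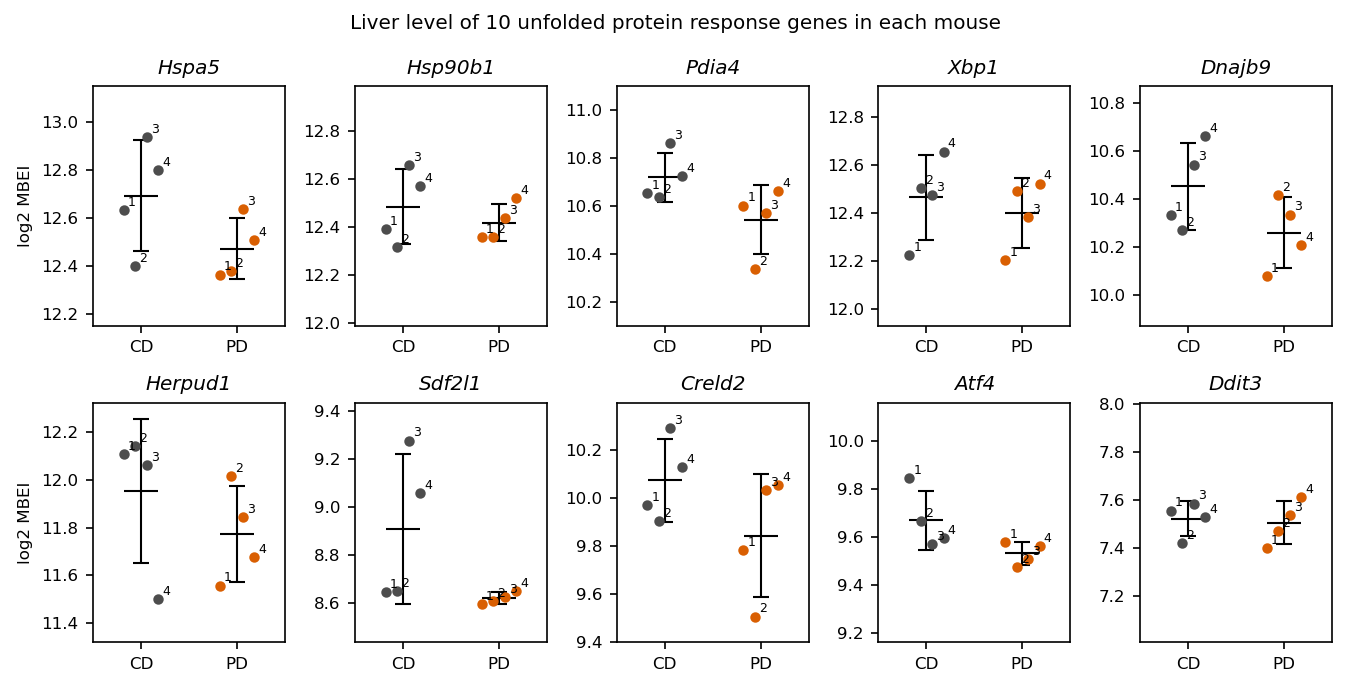
Log2 MBEI of each of the 10 genes at its probe set with the highest mean, in 4 CD (grey) and 4 PD (orange) mice, numbered by replicate, with bars for the mean ± SD and every panel spanning 1 log2 unit. CD mice 3 and 4 are the highest for Hspa5, Hsp90b1, Pdia4, Dnajb9, Sdf2l1 and Creld2, and the diets overlap in all 10 panels.

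Hspa5 encodes BiP, the ER Hsp70 chaperone that binds unfolded chains and holds the sensors inactive. Its level in the CD mice was 12.63, 12.40, 12.94 and 12.80, and in the PD mice 12.36, 12.38, 12.64 and 12.51. CD mice 3 and 4 stood above every PD mouse and CD mice 1 and 2 lay among them, so the groups overlapped. The means were 12.69 ± 0.23 in CD and 12.47 ± 0.13 in PD (SD, n = 4 each), a difference of -0.22 with a standard error of 0.11 and a two-sided exact permutation p of 0.143. The other 2 Hspa5 probe sets gave differences of -0.23 and -0.16. Leaving out 1 mouse at a time moved the difference between -0.32 and -0.14, the smallest change being without CD mouse 3.

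The 250 bases before the Hspa5 start, on chromosome 2 (GRCm38.p6 chr2:34771840-34772089, plus strand, from RefSeq), are shown because they hold the motif by which Atf6 and Xbp1 are known to act. Capitals mark the ER stress response element (ERSE), spelled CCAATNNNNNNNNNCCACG and searched on both strands, which lies 65 to 47 bases before the start.
Hspa5: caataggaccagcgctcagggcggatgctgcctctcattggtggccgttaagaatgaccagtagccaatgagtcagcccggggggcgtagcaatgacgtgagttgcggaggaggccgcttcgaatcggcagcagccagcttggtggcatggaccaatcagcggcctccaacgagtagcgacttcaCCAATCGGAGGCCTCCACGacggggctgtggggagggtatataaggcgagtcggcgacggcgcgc

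Hsp90b1 encodes GRP94, the ER member of the Hsp90 family. Its level was 12.39, 12.32, 12.66 and 12.57 in CD and 12.36, 12.36, 12.43 and 12.52 in PD. The highest mice were again CD mice 3 and 4, the lowest was a CD mouse, and the difference of -0.07 was smaller than the spread within either diet (SD 0.16 in CD and 0.08 in PD). Without CD mouse 3 the difference was -0.0093, and without CD mouse 2 it was -0.12. A second probe set gave a difference of -0.01. The Hsp90b1 promoter on chromosome 10 (chr10:86705445-86705694, minus strand, written 5′ to 3′ in the gene's direction) held the ERSE in both orientations, in capitals, at 212 to 194 bases before the start on the gene's strand and at 107 to 89 bases before it on the opposite strand.
Hsp90b1: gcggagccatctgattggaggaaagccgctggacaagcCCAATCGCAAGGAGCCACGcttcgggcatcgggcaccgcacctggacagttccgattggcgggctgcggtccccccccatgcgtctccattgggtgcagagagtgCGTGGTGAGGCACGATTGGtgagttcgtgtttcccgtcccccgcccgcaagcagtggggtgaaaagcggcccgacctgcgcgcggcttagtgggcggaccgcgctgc

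Pdia4 encodes the disulfide isomerase ERp72. Its level was 10.65, 10.64, 10.86 and 10.72 in CD and 10.60, 10.34, 10.57 and 10.66 in PD, and only PD mouse 4 reached into the CD range. The difference was -0.18 with a standard error of 0.08 and an exact permutation p of 0.0857 (two-sided). It was -0.11 without PD mouse 2 (exact permutation p = 0.171), and without PD mouse 4 it was -0.22 (exact permutation p = 0.0286). Leaving out PD mouse 4 removes the only overlap of the diets, so the lower p follows from the choice of mouse. A second Pdia4 probe set was 0.07 higher in PD. That probe set reached at most 7.39, close to the array medians of 7.09 to 7.16, and did not follow the brighter one across mice (r = -0.32 over 8 mice).

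Creld2 encodes an ER protein with disulfide-handling domains. Its level was 9.97, 9.90, 10.29 and 10.13 in CD and 9.78, 9.50, 10.03 and 10.05 in PD. PD mouse 2 was the lowest, as for Pdia4, while PD mice 3 and 4 lay within the CD range. The difference was -0.23 (standard error 0.12, two-sided exact permutation p = 0.2), and without PD mouse 2 it was -0.12. The Creld2 promoter on chromosome 15 (chr15:88819396-88819645, plus strand) held the ERSE on the opposite strand, in capitals, 126 to 108 bases before the start.
Creld2: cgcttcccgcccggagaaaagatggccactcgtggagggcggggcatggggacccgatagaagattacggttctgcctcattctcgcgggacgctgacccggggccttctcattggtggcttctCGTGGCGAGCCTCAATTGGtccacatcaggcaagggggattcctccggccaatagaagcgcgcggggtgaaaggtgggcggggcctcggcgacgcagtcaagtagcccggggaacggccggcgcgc

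Sdf2l1, a partner of the ER Hsp40 and Hsp70 chaperones, showed the largest mean difference of the 10 genes. The level was 8.65, 8.65, 9.28 and 9.06 in CD and 8.59, 8.61, 8.63 and 8.65 in PD. CD mice 1 and 2 were at the level of the PD mice and the difference came from CD mice 3 and 4. The SD was 0.31 in CD and 0.025 in PD. The difference was -0.29 with a standard error of 0.12 and a two-sided exact permutation p of 0.0857, and without CD mouse 3 it was -0.17. Dnajb9, an ER Hsp40 co-chaperone (ERdj4), was 10.33, 10.27, 10.54 and 10.66 in CD and 10.08, 10.42, 10.33 and 10.21 in PD. CD mice 3 and 4 were again the highest, and PD mouse 2 exceeded CD mice 1 and 2. The difference was -0.19 (two-sided exact permutation p = 0.2), and without CD mouse 4 it was -0.12.

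Herpud1, a membrane protein that organises the degradation of ER proteins, ordered the mice differently. Its level was 12.11, 12.14, 12.06 and 11.50 in CD and 11.56, 12.01, 11.84 and 11.68 in PD. CD mouse 4, among the highest for Hspa5, Dnajb9 and Sdf2l1, was the lowest of all 8 for Herpud1, and a second Herpud1 probe set ordered CD mouse 4 and PD mouse 1 lowest as well (11.35 and 11.41, r = 0.99 between the probe sets). The difference was -0.18 with a standard error of 0.14 (two-sided exact permutation p = 0.343), without CD mouse 4 it was -0.33, and without PD mouse 1 it was -0.11. The Herpud1 promoter on chromosome 8 (chr8:94386179-94386428, plus strand) is shown because it held no ERSE but the related ERSE-II, ATTGGNCCACG, 52 to 42 bases before the start, and the C/EBP-ATF element TTGCATCA, which Atf4 is known to bind with C/EBP partners, 112 to 105 bases before it. Both are in capitals, and the C/EBP-ATF element is the one nearer the 5′ end.
Herpud1: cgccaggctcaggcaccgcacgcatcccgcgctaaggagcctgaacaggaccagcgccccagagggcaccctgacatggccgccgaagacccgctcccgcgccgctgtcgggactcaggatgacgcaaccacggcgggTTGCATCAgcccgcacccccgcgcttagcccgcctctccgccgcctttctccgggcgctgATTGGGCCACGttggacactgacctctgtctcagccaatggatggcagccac

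Xbp1 is both a transducer of the response and its target. Its brightest probe set read 12.22, 12.50, 12.47 and 12.65 in CD and 12.20, 12.49, 12.38 and 12.52 in PD. The mice of the 2 diets interleaved, with CD mouse 1 and PD mouse 1 lowest in their groups. The difference was -0.06 (two-sided exact permutation p = 0.6), the other 3 probe sets gave -0.03 to -0.07, and without PD mouse 1 the difference was 0.002. No probe set was matched to the spliced form, so splicing by Ern1 was not measured here.

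Atf4 was 9.85, 9.66, 9.57 and 9.60 in CD and 9.58, 9.47, 9.51 and 9.56 in PD at its brightest probe set. PD mouse 1 lay above CD mouse 3 and the other PD mice below all CD mice. The difference was -0.14 with a standard error of 0.06 and a two-sided exact permutation p of 0.0571. Without CD mouse 1 it was -0.079 (exact permutation p = 0.114), and without CD mouse 3 it was -0.17 (exact permutation p = 0.0286). CD mouse 3 was the only CD mouse below a PD mouse, so the lower p follows from leaving out that mouse. A second Atf4 probe set, whose suffix _x_at marks probes that can also match other sequences, read 9.62, 9.58, 9.44 and 9.53 in CD and 9.42, 9.40, 9.25 and 9.38 in PD. There the diets did not overlap, with a difference of -0.18 and the smallest exact permutation p the design allows, 0.0286 (two-sided). The remaining probe set, at 6.60 to 6.91 and thus below the array medians, differed by 0.02.

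Ddit3, the CHOP transcription factor linked to cell death under lasting ER stress, was 7.56, 7.42, 7.58 and 7.53 in CD and 7.40, 7.47, 7.54 and 7.61 in PD. These values lay little above the array medians and interleaved between diets. The difference was -0.02 with a standard error of 0.06 (two-sided exact permutation p = 0.8), and it was 0.004 without CD mouse 3. The other Ddit3 probe set gave -0.03 at 6.73 to 7.05.

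**Figure D2:**
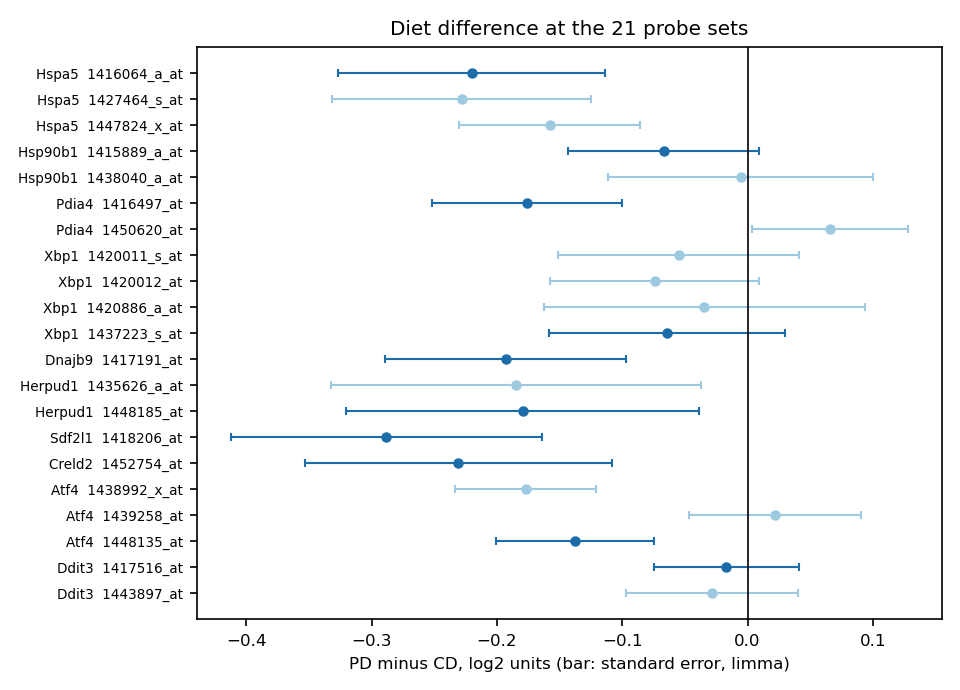
PD minus CD difference in log2 MBEI (horizontal axis) at each of the 21 probe sets, with the standard error from limma, dark blue for the probe set with the gene's highest mean and light blue for the others. The points lie left of 0 in 19 of 21, from -0.29 for Sdf2l1 to 0.07 for the dim Pdia4 probe set.

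The folding targets and the Atf4 and Ddit3 arm were set side by side as the mean deviation of each mouse from the 8-mouse mean of each gene. The 8 targets averaged -0.01, -0.03, 0.26 and 0.13 in CD mice 1 to 4 and -0.19, -0.12, -0.02 and -0.03 in the PD mice. Atf4 and Ddit3 averaged 0.14, -0.02, 0.02 and 0.01 in CD and -0.07, -0.08, -0.03 and 0.03 in PD. CD mouse 3 was highest for the average of the targets and CD mouse 1 for the average of Atf4 and Ddit3. Singly, Atf4 was highest in CD mouse 1 (9.85) and Ddit3 in PD mouse 4 (7.61). Their diet differences were -0.14 and -0.02, so the average of these 2 genes describes neither closely. The PD minus CD difference was -0.18 for the targets and -0.08 for Atf4 and Ddit3, a gap of -0.10. Between mice of the same diet that gap had an SD of 0.13. The SD describes single mice and is not the error of a difference between diet means. Leaving out 1 mouse moved the gap between -0.037 (without CD mouse 3) and -0.17 (without CD mouse 1). No p is given for these averages because the genes were chosen with results known.

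The spread between mice of the same diet was wider for each of the 8 targets than for Atf4 and Ddit3. The within-diet SD was 0.12 to 0.26 for the 8 targets, against a median of 0.08 over all probe sets. It was 0.09 for Atf4 and 0.08 for Ddit3. Ddit3, at 7.40 to 7.61, lay little above the array medians, and the part of signal level in this contrast was not tested. Herpud1 had the widest spread of the 10, above that of 97.7% of all probe sets, and Hspa5 exceeded 94.6%.

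Covariation between mice was computed for the 45 pairs of genes as Pearson's r and Spearman's rho with two-sided exact permutation tests over all pairings of the 8 mice. The 9 pairs with Sdf2l1 are not given because its mice formed separate clusters, CD mice 3 and 4 against the other 6 (a gap over 0.5 of the range, a criterion chosen after the values were seen). Of the remaining 36 pairs, 29 had a positive r and 7 a negative r, with a median of 0.32. Before adjustment 8 pairs had a permutation p under 0.05, and after Benjamini-Hochberg adjustment over the 45 pairs 0 did. With each diet's mean subtracted the counts were 7 and 0.

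The closest pairs lay among the chaperones and foldases. Pdia4 and Creld2 had r = 0.93 and rho = 0.86 over 8 mice (exact permutation p = 0.00236 and 0.0107, adjusted 0.0565 and 0.0964). Hspa5 and Hsp90b1 had r = 0.87 and rho = 0.83 (exact permutation p = 0.00548 and 0.0154, adjusted 0.0565 and 0.115). Hspa5 and Creld2 had r = 0.84 and rho = 0.90 (exact permutation p = 0.00627 and 0.00456, adjusted 0.0565 and 0.0685). These relations rested in part on the mice at the ends of the range, and without the 2 mice farthest from the median r was 0.56, 0.52 and 0.70. Within diets r was 0.91, 0.90 and 0.78.

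Dnajb9 and Ddit3 gave values in the same range with some chaperones. Dnajb9 and Hspa5 had r = 0.76 and rho = 0.71 (exact permutation p = 0.0303 and 0.0576, adjusted 0.141 and 0.216), and r was 0.34 without 2 mice. Ddit3 had r = 0.74 with Hsp90b1 and 0.67 with Hspa5, over a range between mice of 0.21. Without 2 mice these r values were 0.88 and 0.74, and within diets 0.75 and 0.74. The r values of Herpud1, Atf4 and Xbp1 with Hspa5 were lower. Herpud1 had r from -0.24 to 0.34 with its 8 partners, and its r with Hspa5 was 0.005. Atf4 had r from -0.41 to 0.34, with 0.10 for Hspa5 and 0.06 for Ddit3. With each diet's mean subtracted, the r of Atf4 ran from -0.74 (Xbp1) to 0.14 (Herpud1). It was then -0.41 with Hspa5, -0.51 with Hsp90b1, -0.70 with Dnajb9 and -0.02 with Ddit3. Xbp1 and Hspa5 had r = 0.30. None of these passed adjustment, and whether any r differed from another was not tested.

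**Figure D3:**
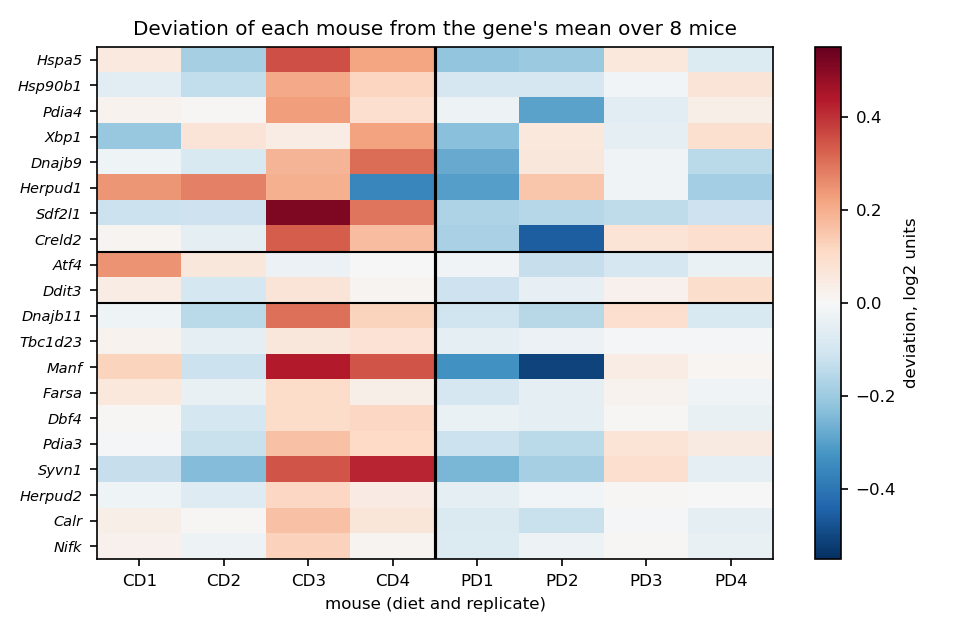
Deviation of each mouse (columns, CD left and PD right of the line) from the gene's mean over 8 mice in log2 units, for the 8 targets, for Atf4 and Ddit3, and for the 10 genes most like Hspa5. CD mice 3 and 4 are red and PD mice 1 and 2 mostly blue in the rows that follow Hspa5, whereas CD mouse 4 is blue for Herpud1.

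Across the liver transcriptome, 5 of the 10 genes most like Hspa5 over the 8 mice belonged to the lists of ER folding and degradation genes. Among 12102 genes at or above the median level, the 10 with the highest r were Dnajb11 (0.96), Tbc1d23 (0.94), Manf (0.93), Farsa (0.93), Dbf4 (0.93), Pdia3 (0.92), Syvn1 (0.92), Herpud2 (0.91), Calr (0.91) and Nifk (0.90). Dnajb11 is an ER Hsp40 co-chaperone, Manf a secreted ER stress protein, Pdia3 a disulfide isomerase for glycoproteins, Calr the lectin chaperone calreticulin and Syvn1 the ubiquitin ligase of ER-associated degradation. Dnajb11 read 10.22, 10.10, 10.55 and 10.37 in CD and 10.14, 10.09, 10.34 and 10.16 in PD, so CD mice 3 and 4 were again the highest and CD mouse 2 and PD mouse 2 the lowest. An r above 0.8 occurred in 7 of 16 folding genes, 3 of 13 degradation and translocation genes, 0 of 7 sensor and activation genes and 0 of 18 genes of the Atf4 arm, against 0.711% of all genes. The median r was 0.71, 0.46, 0.47 and 0.14 in these lists and 0.01 over all genes. These are descriptions over 8 mice that share the arrays, with no test.

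**Figure D4:**
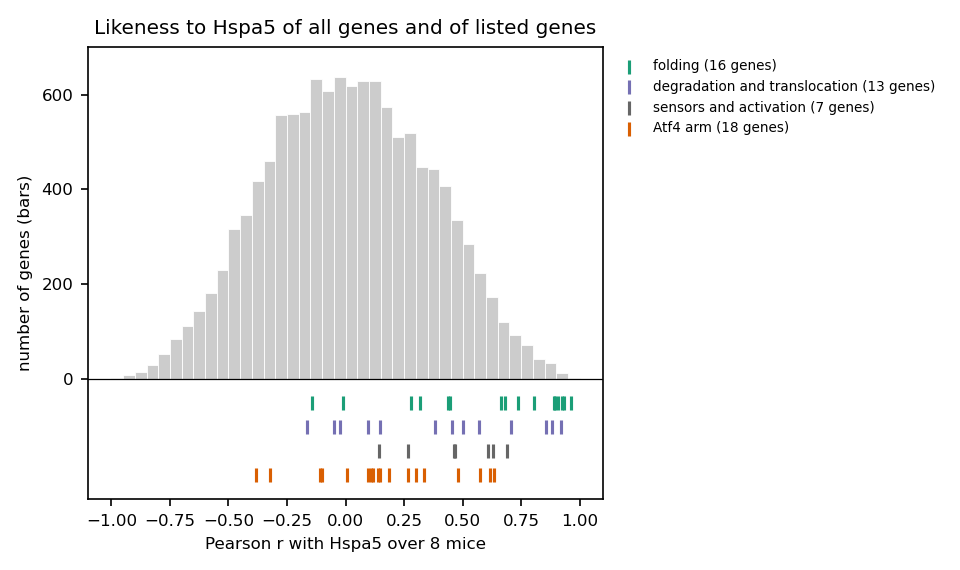
Number of genes (bars) by their Pearson r with Hspa5 over 8 mice, for 12102 genes, with ticks below for genes of 4 lists of the response. The folding genes (16 ticks) crowd toward the right end with a median of 0.71, and the Atf4 arm (18 ticks) has a median of 0.14 and none above 0.8.

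The same search for Herpud1, made after its values had been seen, returned other genes. The highest r belonged to Arhgef26 (0.98), Pim3 (0.97), Gpld1 (0.96) and the circadian repressor Per1 (0.96). Per1 read 7.89, 8.21, 8.07 and 7.12 in CD and 7.32, 8.17, 7.76 and 7.45 in PD. CD mouse 4 and PD mouse 1 were thus the lowest for Per1 as for Herpud1, and 0 of the 10 genes most like Herpud1 belonged to the response lists. Not every clock gene measured followed Per1: Dbp and Per2 were lowest in CD mouse 1 (9.20 and 7.20) and read 11.53 and 7.86 in CD mouse 4. Nr1d1 was lowest in CD mouse 4 (7.51) but read 7.74 in PD mouse 1. The part of time of day or feeding in the order of the mice for Herpud1 was not tested.

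Beyond the 10 genes, 57 other genes of the response were read from lists of sensors, folding, degradation and the Atf4 arm. At their brightest probe sets 39 were lower and 18 higher in PD, with a median difference of -0.05. Over all 18193 genes 53.5% were lower. The rank product called 0 of the 57 up and 2 down, Manf and Chac1, and limma called 0. Among all 18193 genes the rank product called 51 up and 65 down, and limma called 0. Manf read 11.15, 10.91, 11.47 and 11.38 in CD and 10.70, 10.52, 11.07 and 11.04 in PD, a difference of -0.39 (FDR 0.0529, two-sided exact permutation p = 0.114). CD mice 3 and 4 were the highest and PD mice 1 and 2 the lowest, as for Hspa5. Chac1, a glutathione-degrading target of Atf4, read 9.08, 8.23, 9.30 and 8.80 in CD and 8.18, 9.12, 8.03 and 8.56 in PD, a difference of -0.38 (FDR 0.0537, two-sided exact permutation p = 0.286). The Chac1 groups overlapped widely. Both calls depended on single mice: Manf was not called without CD mouse 1, 3 or 4 or PD mouse 2 (FDR 0.18, 0.451, 0.241 and 0.173), and Chac1 was not called without CD mouse 1, 3 or 4 or PD mouse 3 (FDR 0.398, 0.489, 0.135 and 0.215).

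In 2 of the 57 other genes, both folding genes, every PD mouse was below every CD mouse, against 1.02% of all probe sets. In 0 of the 57 was every PD mouse above every CD mouse, against 1.06%. Both genes had a two-sided exact permutation p of 0.0286, which follows from the separation itself, and neither was called. Calr read 12.04, 12.01, 12.17 and 12.08 in CD and 11.93, 11.88, 12.00 and 11.95 in PD, a difference of -0.13. Ero1b, an oxidase that drives disulfide formation, read 10.86, 10.84, 10.95 and 10.92 in CD and 10.65, 10.69, 10.78 and 10.51 in PD, a difference of -0.23. Its exact permutation p was 0.0571 without any 1 of the CD mice. The diets still did not overlap then, and the p was higher because fewer divisions of the mice remained. The spread within each diet was 0.05 to 0.11 (SD). Calr and Ero1b were read at the brightest probe set, and not every other probe set of theirs separated the diets.

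By role, 7 of 8 sensor and activation genes, 12 of 16 folding genes, 6 of 13 degradation and translocation genes and 14 of 20 genes of the Atf4 arm were lower in PD. The share over all genes was 53.5%. The sensors Ern1, Eif2ak3 and Atf6 differed by -0.11, -0.07 and -0.04, and Nfya, a subunit of the factor that binds the CCAAT box of the ERSE, by -0.14. Among folding genes Hyou1, an ER Hsp110 chaperone, differed by -0.09 and Dnajc3, an inhibitor of Eif2ak3 kinase activity, by -0.03. Among degradation genes Syvn1, its partner Sel1l and the mannosidase-like Edem1 differed by -0.20, -0.07 and -0.15. In the Atf4 arm Trib3, a pseudokinase induced by Atf4 and Ddit3, differed by 0.16, Asns, the asparagine synthetase, by -0.16, Ddit4, an inhibitor of mTOR signalling, by -0.31, and Ppp1r15a, which restores translation, by -0.03. None of these 13 was called by either test.

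The ERSE was found in the windows from 250 bases before to 50 bases after the start of 3 of the 10 genes, Hspa5, Hsp90b1 and Creld2, against 39 of 32851 RefSeq windows (0.119%). ERSE-II was found in Herpud1 alone of the 10, against 0.0365% of windows, and the C/EBP-ATF element in Herpud1 alone, against 0.895%. The unfolded protein response element TGACGTGG was found in 0 of the 10, against 0.676%. The ERSE and ERSE-II share their last 5 letters, and no match of different motifs overlapped in these promoters. In the lists, the ERSE was found in 5 of the 12 folding genes with a window (Calr, Canx, Dnajc3, Ero1b and Pdia6) and in 0 of 17 genes of the Atf4 arm, of which 5 held the C/EBP-ATF element (Atf3, Chac1, Fgf21, Nupr1 and Vldlr). The windows of Pdia4, Xbp1, Dnajb9, Sdf2l1, Atf4 and Ddit3 held none of the 4 motifs in these exact letters. Matches are descriptions of letters and not evidence of binding in these livers.

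**Figure D5:**
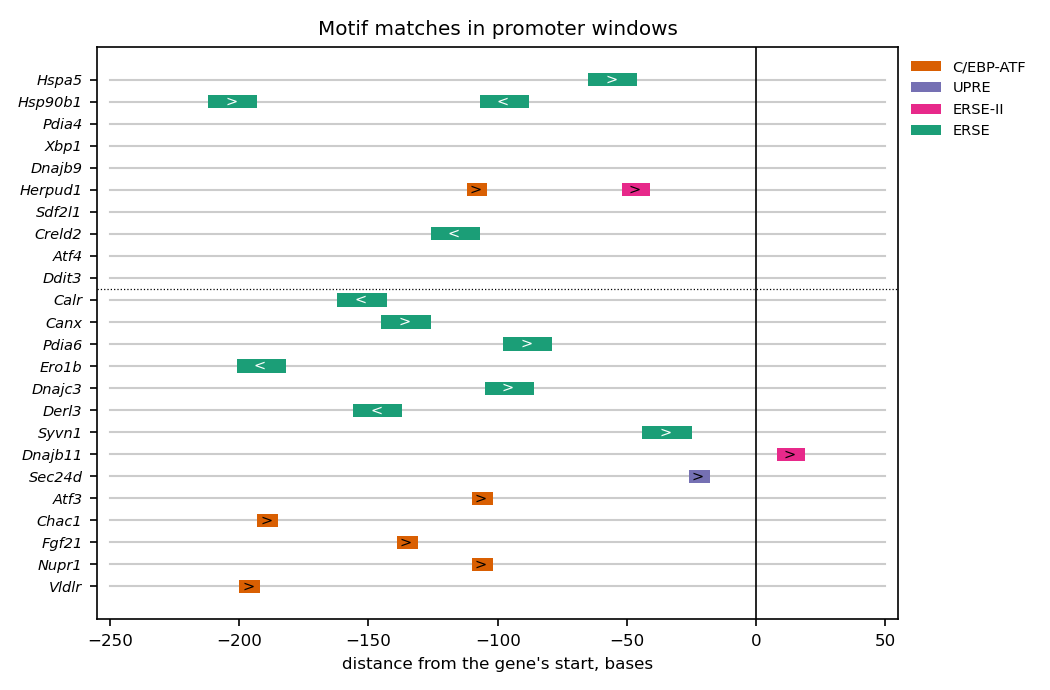
Position of motif matches in bases from the gene's start (horizontal axis) for the 10 genes (above the dotted line) and for the listed genes with a match, coloured by motif, with > for the gene's strand and < for the opposite strand. Hspa5, Hsp90b1 and Creld2 carry the ERSE, and Herpud1 carries ERSE-II and the C/EBP-ATF element.

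The separation of CD mice 3 and 4 from CD mice 1 and 2 was not limited to these genes. The 6 Kupffer cell markers measured had a mean deviation of -0.20, -0.29, 0.19 and 0.21 in CD mice 1 to 4 and 0.10, 0.03, 0.01 and -0.03 in the PD mice. Clec4f, which marks Kupffer cells, read 8.94, 8.89, 9.23 and 9.29 in CD and 8.99 to 9.15 in PD. The list mean was thus higher in the same CD mice as Hspa5 and Sdf2l1. Not every marker followed it: Marco read 7.52, 7.42, 7.26 and 7.44 in CD mice 1 to 4. Of the 6 markers, 4 were higher and 2 lower on average in PD. The part of the Kupffer cell markers in the differences was not tested. Plasma cell markers, whose cells also express the folding genes strongly, had list means of -0.10 to 0.06 in CD and -0.08 to 0.17 in PD. The J chain transcript Jchain was 8.19 in PD mouse 2 against 6.56 to 7.08 in the other 7 mice. Every other plasma cell marker was, in PD mouse 2, within the range of the other 7 mice, for example Mzb1 at 7.28 and Ighm at 9.52. PD mouse 2 was low for Hspa5, Pdia4 and Creld2. The 6 stellate cell and fibroblast markers had a list mean of -0.09, -0.21, 0.11 and -0.09 in CD mice 1 to 4 and 0.003, 0.10, 0.05 and 0.12 in the PD mice. Of these, 4 were higher in PD, Col3a1 was called up (difference 0.37, rank product FDR 0.0204), and Lrat differed by 0.28 without a call. The part of the plasma and stellate cell markers in the differences was not tested.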

How the data were processed

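Liver RNA of 8 mice was hybridised to 8 Affymetrix arrays. The values deposited by the authors are a log2 model-based expression index from R 2.7.2, as named in the submitters' processing notes, and were not rescaled. How arrays were normalized to each other was not given in the sources used here. The 64 control probe sets among 45101 were left out. Each gene was represented by the probe set with the highest mean. Diets were compared by the rank product over all 16 PD and CD pairs (1000 permutations, FDR under 0.1) in Python 3.11.15, by limma 3.58.1 in R 4.3.3 over all probe sets, and by two-sided exact permutation tests, and the code was tested on simulated data. Intervals for counts do not apply to arrays, whose number limits the precision. Genes were named from GEO's platform annotation with symbols updated through RefSeq (GRCm38.p6), and promoter sequences are from RefSeq. Named besides the 10 genes were those called by the rank product, the 2 largest differences per list, 9 fixed genes and the 10 most like Hspa5. The genes and lists were chosen with earlier results of these data known. Alternatives covered scaling, a pseudocount of 16, filters, other tests and leaving out each mouse. Nothing in the labels ties mice of the same number. The p-values of limma and of the exact permutation tests refer to the spread between these mice. The FDR of the rank product comes from permuting values among probe sets within each array, and its 16 pairs reuse the same 8 mice. It is therefore not set against the spread between mice.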

Additional observations from a re-analysis of the deposited data

Results flagged for a closer look

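Among 52 groups of 4 mice examined at the probe sets of the named response genes, 2 held a mouse far from the other 3 of its diet, where chance gives about 1 in 20 groups. Herpud1 was 11.50 in CD mouse 4, against 12.06 to 12.14 in the other CD mice, and the second Herpud1 probe set was also lowest there. Eif2ak3, which encodes the sensor PERK, was 7.86 in PD mouse 4, against 8.01 to 8.04 in the other PD mice.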

How the results depend on the processing

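The counts of 0 member probe sets called up or down by the rank product held under every alternative run, and limma called 0 under each, while the methods' t-test without adjustment passed 1. The 10 diet differences stayed below 0 under the other scalings, the pseudocount and the mean of all probe sets. Leaving out 1 mouse moved Xbp1 between -0.14 and 0.0018 and Ddit3 between -0.052 and 0.018. Among other response genes it moved Atf6 between -0.079 and 0.016, Sel1l between -0.13 and 0.0023, Trib3 between -0.041 and 0.28, and Ppp1r15a between -0.054 and 0.014. The 2 other genes called down became 0 at an FDR under 0.05 and 0 to 3 when 1 mouse was left out. Members whose diets did not overlap, 0 of 10 at the brightest probe sets, numbered 0 to 2. After quantile normalization 2 pairs of genes passed adjustment in the correlations, against 0. The causes were not tested. With the replicate block, which pairs mice of the same number, 0 member probe sets were called by either test. The numbers do not pair the mice: same-numbered mice correlated at -0.0008, -0.0003, -0.03 and -0.06 in their deviations, and in 0 of 4 was the own number the highest. The differences of the 10 genes, 0.02 to 0.29, stood against a within-diet SD of 0.08 to 0.26, and what size could be called was not determined.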
